A study of Mus musculus with 6 samples.

Results

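The T cell receptor complex and the first enzymes and adaptor that act on it were examined in RNA sequencing of mouse CD8+ T cells treated with an inhibitor of vitamin B6-dependent enzymes. The 9 genes were taken by symbol from the deposited count matrix: the CD3 chains Cd3d, Cd3e, Cd3g and Cd247, the coreceptor chains Cd8a and Cd8b1, the kinases Lck and Zap70, and the adaptor Lat. All 9 were present among the 11922 genes of the matrix, and all 9 were among the 11759 genes that passed a filter on low counts and were tested.

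Splenic CD8+ T cells of 3 C57BL6/J mice were bound on magnetic beads through CD8α. They were then stimulated by beads carrying antibodies to CD3 and CD28, with recombinant human IL-2 at 100 units/ml, and were kept in culture for 7 days in all, the stimulating beads being taken off after 3 days. The vehicle group had water, and the AOA group had 0.25 mM aminooxyacetic acid (AOA) for the whole culture. AOA blocks enzymes that need pyridoxal phosphate, the active form of vitamin B6, and it is not specific to any of them. Each mouse gave 1 culture to each group, so that 3 vehicle and 3 AOA libraries, numbered by mouse, were compared. Both groups shared the CD8α selection, the bead activation, the IL-2 and the strain, no genotype was altered, and each library is a bulk culture with no named second sort on day 7. The question asked here is how the RNA of the receptor and its proximal signalling chain stood in the AOA-treated cells.

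The T cell receptor recognises a peptide held by an MHC molecule, but its own α and β chains cannot signal. The signal is carried by the CD3δ, CD3ε, CD3γ and ζ chains, whose cytoplasmic tyrosines are phosphorylated by Lck, a kinase of the Src family that is brought to the receptor by the tails of CD4 and CD8α. ZAP-70 then docks on the phosphorylated chains and phosphorylates the membrane adaptor LAT, on which the enzymes that release calcium and activate Ras are assembled. In cytotoxic T cells CD8 is mostly a heterodimer of CD8α and CD8β, and CD8αα homodimers also occur.

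Values are in CPM, the usual scaling of read counts to a common library size, here with a correction for composition. Total counts ranged from 12881962 to 18934869 with vehicle and from 18696114 to 21997078 with AOA. The 9 genes together made up 0.487% to 0.572% of all counts with vehicle and 0.587% to 0.666% with AOA. A gene is called changed when its adjusted p in edgeR's quasi-likelihood test, with Benjamini-Hochberg adjustment over all genes tested, lies under 0.05. A log2 fold change is that of AOA relative to vehicle, given with its standard error (SE). A library stood apart within each group. By a chi-square per gene between counts, vehicle 1 and 3 differed by 10.03 and either differed from vehicle 2 by 55.2 and 59.9, while AOA 2 and 3 differed by 10.5 and either differed from AOA 1 by 70.9 and 64.3. The 3 called members are therefore also given without vehicle 2 and without AOA 1.

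Of the 9 genes, 3 were called changed, or 33.3%, against 53.0% of all genes tested. Cd8a and Cd8b1 were higher with AOA, where 26.2% of all genes tested were called higher, and Zap70 was lower, where 26.8% of all genes were called lower. The 4 CD3 chains, Lck and Lat were not called. The median log2 fold change of the 9 genes was -0.13, and that of all genes tested was -0.02. The AOA libraries lay wholly above the vehicle libraries for 2 of the 9 genes and wholly below for 2, and the groups overlapped for 5. Over all genes tested, 62.1% had groups that did not overlap, with AOA above in 31.0% and below in 31.1%. Neither the share called nor the share without overlap was above that of all genes.

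**Figure D1:**
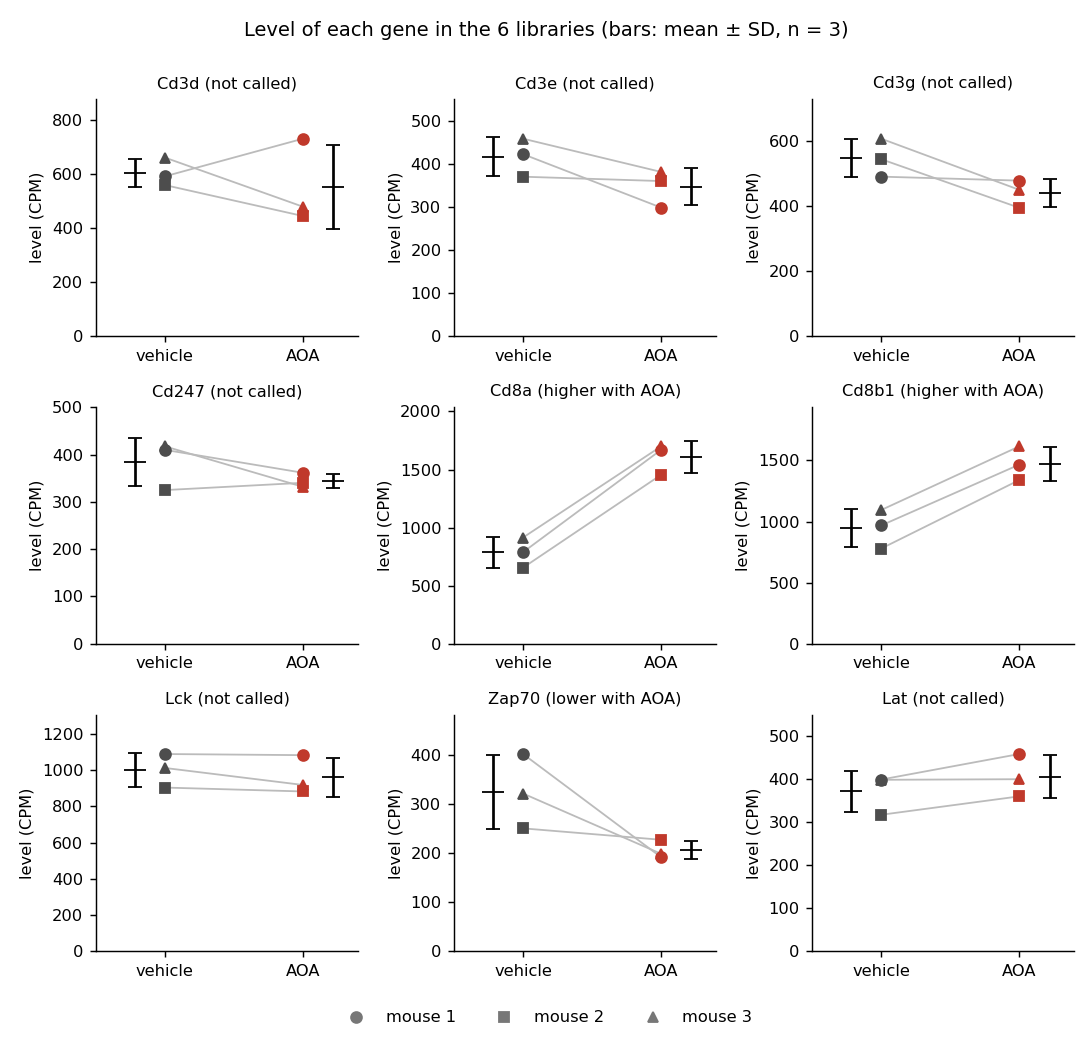
Level of the 9 genes in each library, in CPM on axes that start at 0. Circles, squares and triangles are mice 1, 2 and 3, grey lines join the cultures of a mouse, and bars beside the points are the mean and SD of 3 libraries. Cd8a rose from between 654 and 914 CPM to between 1455 and 1700 CPM, and Zap70 fell from between 250 and 401 CPM to between 192 and 227 CPM.

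The upstream sequences of 4 genes are printed because they stand for the different outcomes among the 9: Cd8a, called higher, Zap70, called lower, and Cd3d and Lck, not called. Each is the 250 bases before a RefSeq transcript start on GRCm38.p6, read 5′ to 3′ on the strand of the gene. Capitals mark a match, on either strand, to 1 of 7 motifs, which did not overlap. These were TGTGGT for the RUNX core, AGGAAG for the ETS core, CAGCTG for the E-box of E proteins, AGATAA for the GATA core, CTTTGA for the TCF and LEF core, TATAAA for the TATA box and GGGCGG for the Sp1 GC box.
Cd8a, chr6:71373177-71373426, plus strand: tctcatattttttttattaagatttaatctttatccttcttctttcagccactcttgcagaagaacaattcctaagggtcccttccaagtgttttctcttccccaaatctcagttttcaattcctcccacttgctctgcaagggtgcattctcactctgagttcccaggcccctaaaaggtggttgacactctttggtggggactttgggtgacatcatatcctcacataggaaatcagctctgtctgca
Zap70, chr1:36761548-36761797, plus strand: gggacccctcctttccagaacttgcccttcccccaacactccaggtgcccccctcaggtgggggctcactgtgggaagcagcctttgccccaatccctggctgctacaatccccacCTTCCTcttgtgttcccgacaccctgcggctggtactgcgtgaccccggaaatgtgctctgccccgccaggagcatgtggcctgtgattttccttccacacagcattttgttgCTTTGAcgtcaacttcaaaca
Cd3d, chr9:44981536-44981785, plus strand: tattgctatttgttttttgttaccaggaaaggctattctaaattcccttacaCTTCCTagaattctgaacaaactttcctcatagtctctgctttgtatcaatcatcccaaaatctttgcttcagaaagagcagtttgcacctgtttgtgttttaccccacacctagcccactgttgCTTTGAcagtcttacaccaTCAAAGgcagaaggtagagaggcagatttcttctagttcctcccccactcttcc
Lck, chr4:129573642-129573891, minus strand: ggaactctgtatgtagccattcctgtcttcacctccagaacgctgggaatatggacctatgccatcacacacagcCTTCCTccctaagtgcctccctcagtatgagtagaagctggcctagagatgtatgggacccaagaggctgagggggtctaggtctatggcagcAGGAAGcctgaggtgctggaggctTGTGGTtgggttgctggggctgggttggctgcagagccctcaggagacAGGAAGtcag

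The 7 motifs were absent from the Cd8a window, which had 42.8% G and C and 0 CpG dinucleotides. The Zap70 window had 58.8% G and C, 6 CpG dinucleotides, an ETS core 134 bases before the start and a TCF and LEF core 21 bases before it. The Lck window held a RUNX core 58 bases before the start and ETS cores at 175, 82 and 10 bases. The Cd3d window held an ETS core at 198 bases and TCF and LEF cores at 73 and 54 bases. These matches describe letters in the windows and are not evidence of binding. Over 32817 promoter windows of the same length, 29.5% held the ETS core, 13.8% the TCF and LEF core, 14.0% the RUNX core, 32.7% the Sp1 GC box, 13.0% the E-box, 12.4% the TATA box and 9.99% the GATA core, and the median window had 52.4% G and C and 6 CpG dinucleotides. Of the 8 genes with a window, 6 held the ETS core, 2 the TCF and LEF core, and 1 each the RUNX core, the GATA core and the Sp1 GC box, while 0 held the E-box or the TATA box. Cd8b1 had no entry. For Lck, with 2 entries, and Zap70, with 3, the window nearest to the annotated start of the gene was used.

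The coreceptor genes rose with AOA. Cd8a (Entrez 12525), on chromosome 6 at 71373427 to 71379173 of GRCm38, encodes CD8α, the chain that binds Lck. Its level in libraries 1, 2 and 3 was 788, 654 and 914 CPM with vehicle and 1670, 1455 and 1700 CPM with AOA. Every AOA library was above every vehicle library. The mean rose from 785 ± 130 to 1608 ± 134 CPM (SD, n = 3), a log2 fold change of 1.03 (SE 0.18, 95% confidence interval 0.63 to 1.44, adjusted p = 0.00128). The log2 difference between the cultures of a mouse was 1.08, 1.15 and 0.89 in mice 1, 2 and 3. Among the 9 genes, Cd8a alone was called with a log2 fold change of 1 or more in either direction, and its fold was 2.05. Over all genes tested, 26.2% were called with such a change, 12.1% higher and 14.1% lower. It stayed called without vehicle 2 (log2 fold change 0.95) and without AOA 1 (1.01). As these are bulk cultures, a change in the share of cells of a type and a change in RNA per cell cannot be told apart. This holds here and for every gene below.

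Cd8b1 (Entrez 12526) lies upstream of Cd8a on the same strand, at 71322788 to 71337494, and ends 35933 bases before Cd8a begins. It encodes CD8β, which pairs with CD8α and is needed for efficient use of CD8 as a coreceptor. Its level was 968, 779 and 1094 CPM with vehicle and 1466, 1339 and 1615 CPM with AOA. The groups did not overlap. The mean rose from 947 ± 159 to 1473 ± 138 CPM (SD, n = 3), a log2 fold change of 0.64 (SE 0.18, 95% confidence interval 0.23 to 1.04, adjusted p = 0.0148). The difference was 0.60, 0.78 and 0.56 in the 3 mice. It was called without vehicle 2 (0.55) and without AOA 1 (0.64), but not without AOA 3 (0.57, adjusted p = 0.0634).

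The coreceptor chains rose by different amounts. Per gene length, the level of Cd8b1 over that of Cd8a was 2.72, 2.63 and 2.65 with vehicle and 1.94, 2.04 and 2.10 with AOA. Every AOA library was below every vehicle library, although the RNA of CD8β remained the more abundant per length. On the log2 CPM scale the ratio was 0.27 ± 0.02 with vehicle and -0.13 ± 0.06 with AOA (SD, n = 3), a difference of -0.40, and it was lower in 3 of 3 mice, by -0.48, -0.37 and -0.33. A two-sided exact permutation test gave p = 0.1, the smallest that 3 against 3 libraries allow, and 0.225 after Benjamini-Hochberg adjustment over 9 pairs of genes, so that no ratio could pass 0.05 by this test.

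The neighbouring genes were examined after the values had been seen. Of 11 tested genes within 500 kb of Cd8a, Cd8b1 aside, 4 were called higher and 2 lower with AOA. The genes that flank the CD8 pair were not called: Smyd1, on the side of Cd8b1, had a log2 fold change of -0.61 (adjusted p = 0.0707) and Rmnd5a, on the side of Cd8a, had -0.14 (adjusted p = 0.490). Within the same distance of Cd3e, the other CD3 genes aside, 2 of 15 tested genes were called higher and 3 lower. Around Zap70, 1 of 13 was called higher and 6 lower, while Actr1b (0.21) and Tmem131 (0.10), the nearest tested gene on either side, were not called. Over all genes tested, 26.2% were called higher and 26.8% lower.

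The CD3 chains were not called, and their intervals set how large a change could have been missed. Cd3d (Entrez 12500, chromosome 9, 44981786 to 44987339, plus strand) encodes CD3δ, which pairs with CD3ε. Its level was 592, 559 and 661 CPM with vehicle and 731, 445 and 479 CPM with AOA. The highest and the 2 lowest of the 6 libraries were all AOA libraries. The log2 fold change was -0.13 (SE 0.21, 95% confidence interval -0.60 to 0.33, adjusted p = 0.619). Without AOA 1 it was -0.38, with an adjusted p of 0.0377, and the gene was then called lower.

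Cd3e (Entrez 12501, chromosome 9, 44998740 to 45009627, minus strand) encodes CD3ε, which is found in both CD3 heterodimers. Its level was 423, 370 and 459 CPM with vehicle and 299, 360 and 382 CPM with AOA. The groups overlapped, as AOA 3 was above vehicle 2. The log2 fold change was -0.27 (SE 0.16, 95% confidence interval -0.62 to 0.09, adjusted p = 0.179). An antisense gene, Gm48719, overlaps its exons.

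Cd3g (Entrez 12502, chromosome 9, 44969572 to 44980431, minus strand) encodes CD3γ, and its start lies 1355 bases from that of Cd3d, from which it is read in the opposite direction. Its level was 491, 545 and 608 CPM with vehicle and 479, 395 and 450 CPM with AOA. Every AOA library was below every vehicle library, by a small margin between AOA 1 and vehicle 1 of the same mouse. The log2 fold change was -0.31 (SE 0.15, 95% confidence interval -0.66 to 0.03, adjusted p = 0.115), so the gene was not called.

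Cd247 (Entrez 12503, chromosome 1, 165788681 to 165877277, plus strand) encodes the ζ chain, which carries most of the phosphorylation motifs of the complex. Its level was 410, 325 and 417 CPM with vehicle and 361, 340 and 332 CPM with AOA. All AOA libraries lay inside the range of the vehicle libraries. The log2 fold change was -0.16 (SE 0.15, 95% confidence interval -0.49 to 0.18, adjusted p = 0.403). Exons of Pou2f1 overlap Cd247 on the opposite strand, and no source used here gives the strand setting of the counting. Gm16565, on the same strand, shares 206 exon bases with Cd247.

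The lower bounds of the intervals of the 4 CD3 chains ran from -0.66 to -0.49, and their upper bounds from 0.03 to 0.33. AOA 1 differed from the other AOA libraries in the balance of the chains. Per length, Cd3e over Cd3d was 0.378 in AOA 1, against 0.750 and 0.737 in AOA 2 and 3 and between 0.613 and 0.662 in the vehicle libraries. The change in this log2 ratio was -0.81 in mouse 1 and 0.29 and 0.20 in mice 2 and 3. Over all libraries it was -0.11 (two-sided exact permutation p = 1). The differences of Cd3g over Cd3d (-0.15, exact p = 0.6) and of Cd247 over Cd3e (0.12, exact p = 0.7) were also within the spread of the libraries.

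Of the kinases, Zap70 fell and Lck was not called. Lck (Entrez 16818) lies on chromosome 4 at 129548344 to 129573641, on the minus strand. Its level was 1088, 903 and 1011 CPM with vehicle and 1082, 882 and 918 CPM with AOA. The 2 libraries of a mouse lay close together, with log2 differences of -0.01, -0.03 and -0.14 in mice 1, 2 and 3. The log2 fold change was -0.06 (SE 0.16, 95% confidence interval -0.42 to 0.30, adjusted p = 0.777).

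Zap70 (Entrez 22637, chromosome 1, 36761798 to 36782818, plus strand) encodes the kinase that binds the phosphorylated CD3 and ζ chains. Its level was 401, 250 and 321 CPM with vehicle and 192, 227 and 198 CPM with AOA. The groups did not overlap, but the gap between AOA 2 and vehicle 2, both of mouse 2, was small beside the spread of the vehicle libraries. The mean fell from 324 ± 75.7 to 206 ± 18.8 CPM (SD, n = 3), a log2 fold change of -0.66 (SE 0.19, 95% confidence interval -1.07 to -0.24, adjusted p = 0.0148). The difference within a mouse was -1.07, -0.14 and -0.69. The call held without vehicle 2 (-0.78, adjusted p = 0.00238), but was lost without AOA 1 (-0.61, adjusted p = 0.0533), without AOA 3 (-0.63, adjusted p = 0.0552) and without vehicle 1 (-0.45, adjusted p = 0.0758).

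Lat (Entrez 16797, chromosome 7, 126363824 to 126369570, minus strand) encodes the adaptor that ZAP-70 phosphorylates. Its level was 398, 317 and 398 CPM with vehicle and 458, 360 and 399 CPM with AOA. The groups overlapped. The log2 fold change was 0.13 (SE 0.16, 95% confidence interval -0.23 to 0.49, adjusted p = 0.528).

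**Figure D2:**
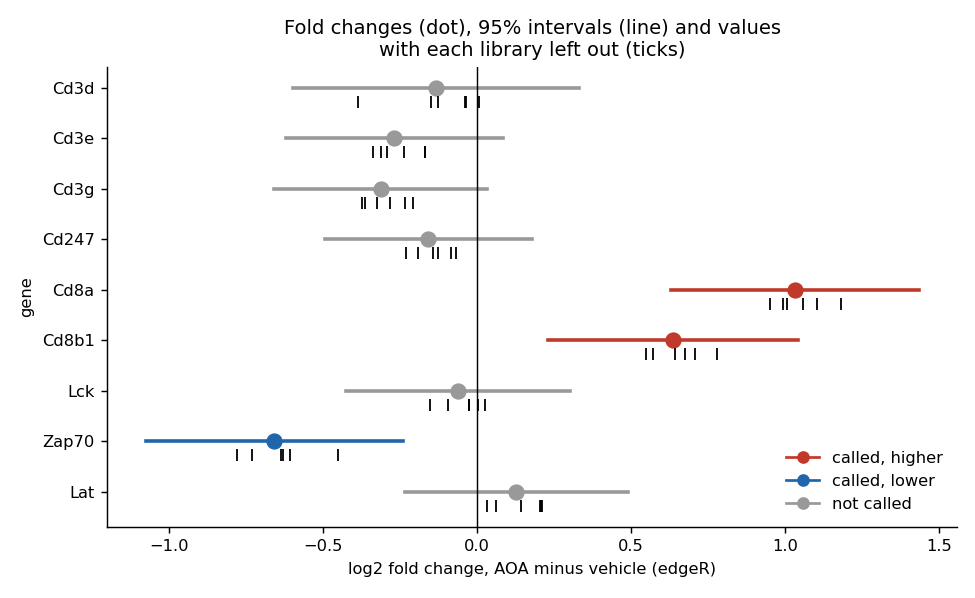
Log2 fold change of each gene with its 95% confidence interval, and below each line the value after leaving out each of the 6 libraries. Cd8a lay between 0.95 and 1.18 whichever library was left out, Zap70 between -0.78 and -0.45, and Cd3d moved from -0.38 to above 0.

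The balance of kinase, substrate and receptor was followed within libraries. Zap70 over Lck was lower with AOA by -0.57 on the log2 scale, with -1.06, -0.11 and -0.55 in mice 1, 2 and 3. Lat over Zap70 was higher by 0.76, with 1.27, 0.32 and 0.70. In both, the groups did not overlap and the exact permutation p was 0.1, adjusted to 0.225. Of 3 ratios added after the values had been seen, Cd8a over Lck was the most even across mice, with 1.09, 1.19 and 1.03 (mean 1.10, exact p = 0.1). Cd8a over Cd3e rose by 1.31 and Zap70 over Cd247 was lower by -0.49, again without overlap and with an exact p of 0.1. These are ratios of RNA.

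**Figure D3:**
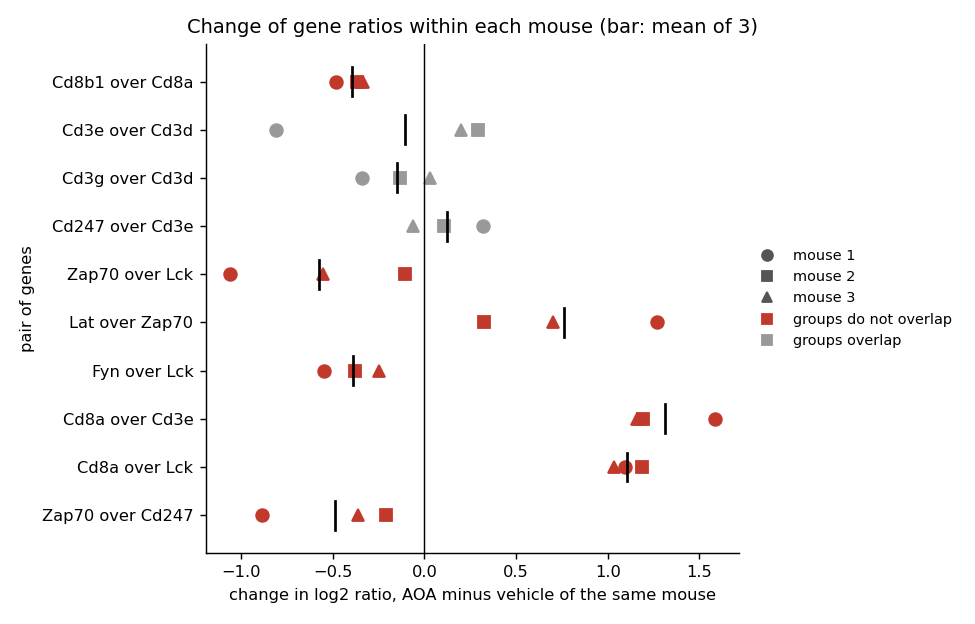
Change in log2 ratio of 10 pairs of genes between the AOA and the vehicle culture of each mouse, with the mean of 3 mice as a bar. In the pairs in red the libraries of the groups did not overlap. Cd8b1 over Cd8a was lower in 3 of 3 mice and Cd3e over Cd3d moved by -0.81 in mouse 1 alone.

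Levels between genes were compared per length, in TPM, computed from the deposited gene lengths. Unlike the CPM here, TPM was scaled to the per-length total of each library, without the correction for composition. With vehicle the order was Cd8b1 (1376 ± 184 TPM), Cd3g (1107 ± 117), Cd3d (937 ± 54.6), Lck (898 ± 57.6), Lat (603 ± 55.1), Cd3e (599 ± 42.9), Cd8a (517 ± 68.2), Zap70 (245 ± 51.0) and Cd247 (172 ± 16.9; SD, n = 3). The ranges of neighbours in this order overlapped except between Lck and Lat, between Cd8a and Zap70, and between Zap70 and Cd247. With AOA, Cd8b1 was at 2101 ± 295 TPM and Cd8a at 1035 ± 106 TPM, above Cd3g at 867 ± 60.8 TPM, so that both coreceptor genes headed the order with no overlap between them or with Cd3g. Cd3d, lower in the order, reached 984 TPM in AOA 1, above the 955 TPM of Cd8a in that library. Cd8a moved from rank 248 to rank 117 among all genes by mean TPM, and Zap70 from rank 534 to rank 1042. Zap70 (153 ± 26.3 TPM) and Cd247 (151 ± 9.12 TPM), which did not overlap with vehicle, did so with AOA. The mean of the highest gene was 8.01 times that of the lowest with vehicle and 14.0 times with AOA. Equal RNA per length does not mean equal protein in the complex.

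**Figure D4:**
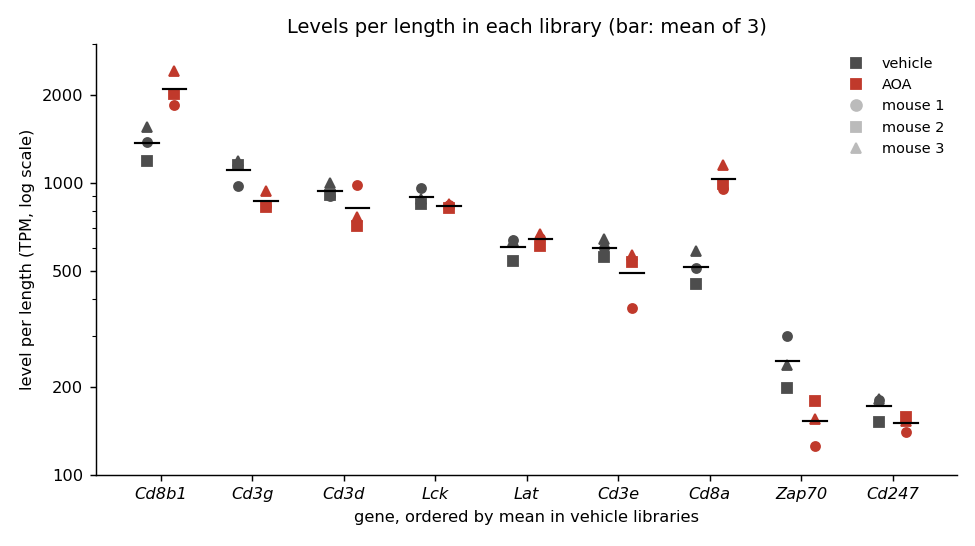
Level per length of the 9 genes in each library, in TPM on a log axis, in the order of their vehicle means, which are drawn as bars with those of the AOA libraries. Cd8a moved from a mean of 517 TPM, below Cd3e, to 1035 TPM, above the means of all CD3 genes.

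The other genes of proximal receptor signalling were taken from lists by role. Of 78 genes listed, 74 were tested, and Trac, Trbc1, Trbc2 and Mal were not analysed here. With AOA 8 rose and 32 fell, or 54.1% called against 53.0% of all genes tested, while 34 were not called. Over all genes tested 26.2% were called higher and 26.8% lower, and the counts by role below are to be read beside these shares. Their median log2 fold change was -0.32, beside -0.02 over all genes tested. The AOA libraries lay above the vehicle libraries in 7 of the 74 and below in 34, beside 31.0% and 31.1% of all genes tested. Of the 40 called, 18 had moved by 1 or more on the log2 scale, and 0 of these 18 rose, beside 12.1% higher and 14.1% lower at this size over all genes tested. Of the pathway genes named below, Cd6, Sit1, Nck2, Ptprcap, Rasgrp2 and Fcer1g lost their call without AOA 1, and Sit1 and Rasgrp2 without vehicle 2.

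Among 6 tested surface partners of the receptor, 1 rose and 4 fell. Cd28, the costimulatory receptor that the stimulating beads also engage, fell from 419 ± 8.38 to 171 ± 27.5 CPM (log2 fold change -1.29, adjusted p = 1.84e-04). Cd5 and Cd6, related scavenger-receptor proteins that dampen receptor signals, fell by 0.88 and 0.75 on the log2 scale (adjusted p = 0.0132 and 0.0135). The call of Cd5 was lost without AOA 3, and that of Cd6 without vehicle 1, AOA 1 or AOA 3. Thy1, a glycolipid-anchored protein of the T cell surface, rose from 1154 ± 198 to 2083 ± 132 CPM (0.85, adjusted p = 0.00352), as Cd8a and Cd8b1 did.

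Among 22 adaptors, 3 rose, 8 fell and 11 were not called, with a median of -0.17. Lcp2, which encodes the SLP-76 protein that joins LAT, was not called (-0.11, adjusted p = 0.587). Sh2d2a, the T cell-specific adaptor that binds Lck, fell from 757 ± 294 to 204 ± 26.3 CPM (-1.89, adjusted p = 7.13e-04), Grap, a Grb2-related adaptor, fell by 1.59 and Lax1, a LAT-like membrane adaptor, fell by 1.49 on the log2 scale. Pag1, the membrane adaptor that recruits the inhibitory kinase Csk, rose by 0.87 (adjusted p = 0.00206), Sit1, a transmembrane adaptor, by 0.60 (adjusted p = 0.0450) and Nck2 by 0.50 (adjusted p = 0.0438). Neither Sit1 nor Nck2 kept its call in every alternative.

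Among 12 other kinases and lipases, 0 rose, 2 fell and 10 were not called, with a median of -0.10. Plcg1, the phospholipase that assembles on LAT, fell from 456 ± 126 to 193 ± 23.3 CPM (-1.24, adjusted p = 0.00142). Fyn, the second Src-family kinase of T cells, was at 463, 424 and 434 CPM with vehicle and at 315, 318 and 332 CPM with AOA, without overlap. Its log2 fold change was -0.45 (adjusted p = 0.0167), and Fyn over Lck was lower by -0.39, in 3 of 3 mice. The call of Fyn was lost when any of vehicle 1, vehicle 3, AOA 2 or AOA 3 was left out. Csk, which phosphorylates the inhibitory tyrosine of Lck, was at 0.04 (95% confidence interval -0.35 to 0.43, adjusted p = 0.863). Syk, the paralogue of ZAP-70, was at 2.56 ± 2.26 CPM with vehicle and 2.81 ± 1.23 CPM with AOA (SD, n = 3), far below Zap70 in both groups. Its log2 fold change was 0.12, with a 95% confidence interval from -1.19 to 1.42. This list holds Pdk1, which encodes pyruvate dehydrogenase kinase and is no member of the receptor pathway. It was at -0.10 and was not called.

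Among 20 phosphatases and brakes, 3 rose, 10 fell and 7 were not called, with a median of -0.50. Ptprc encodes CD45, the phosphatase that removes the inhibitory phosphate of Lck. It was at 4317, 3214 and 3873 CPM with vehicle and at 2275, 2156 and 2252 CPM with AOA. The groups did not overlap, and its log2 fold change was -0.77 (adjusted p = 0.00558). Cblb, a ubiquitin ligase that restrains activation, fell by 2.02, Ptpn22, a phosphatase that acts on Lck and ZAP-70, fell by 1.67 and Pstpip1 fell by 1.52 on the log2 scale. Ptpn6, which encodes the phosphatase SHP-1, rose by 0.77 (adjusted p = 0.00442), Ptpn2 by 0.49 (adjusted p = 0.0127) and Ptprcap, which encodes a protein bound to CD45, by 0.47 (adjusted p = 0.0422). The call of Ptprcap was lost without AOA 1 (0.29, adjusted p = 0.0767), vehicle 1, vehicle 3 or AOA 3, and with a filter of 10 CPM in 3 libraries. That of Ptpn2 was lost without vehicle 1 (0.43, adjusted p = 0.0530).

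Further downstream, 1 of 8 exchange factors and other genes rose and 4 fell, with a median of -0.30. Malt1 fell by 2.08, Rasgrp4 by 2.54 and Sos2 by 1.42 on the log2 scale, and Rasgrp2 rose by 0.45 (adjusted p = 0.0383). Of 6 genes that handle Lck or replace the ζ chain, 0 rose and 4 fell, with a median of -1.02. Unc119 and Unc119b, whose proteins bind the lipid tails of proteins such as Lck, fell (log2 fold change -1.46 and -1.50). Fcer1g, whose γ chain can stand in for ζ, was at 2.22, 53.4 and 5.86 CPM with vehicle and at 1.24, 2.54 and 1.21 CPM with AOA. Its log2 fold change of -3.63 (adjusted p = 0.0150) rested on vehicle 2, without which it was -1.28 (adjusted p = 0.0385). The call was lost by limma (-2.57, adjusted p = 0.109) and without any 1 AOA library. Vehicle 2 was also the highest library for Klrb1c, a marker of NK cells (111 CPM, against 41.7 and 20.1 CPM in vehicle 1 and 3). The same held for Fcgr3, a marker of macrophages and monocytes (10.2 CPM, against 3.73 and 3.58 CPM). Cd68, of the same list as Fcgr3, was lowest in vehicle 2 among the vehicle libraries (13.3 CPM, against 15.2 and 14.7 CPM). Cd14 and Lyz2, also of that list, were at 1.03 CPM or less in every vehicle library. The part of such cells in the value of Fcer1g was not tested.

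**Figure D5:**
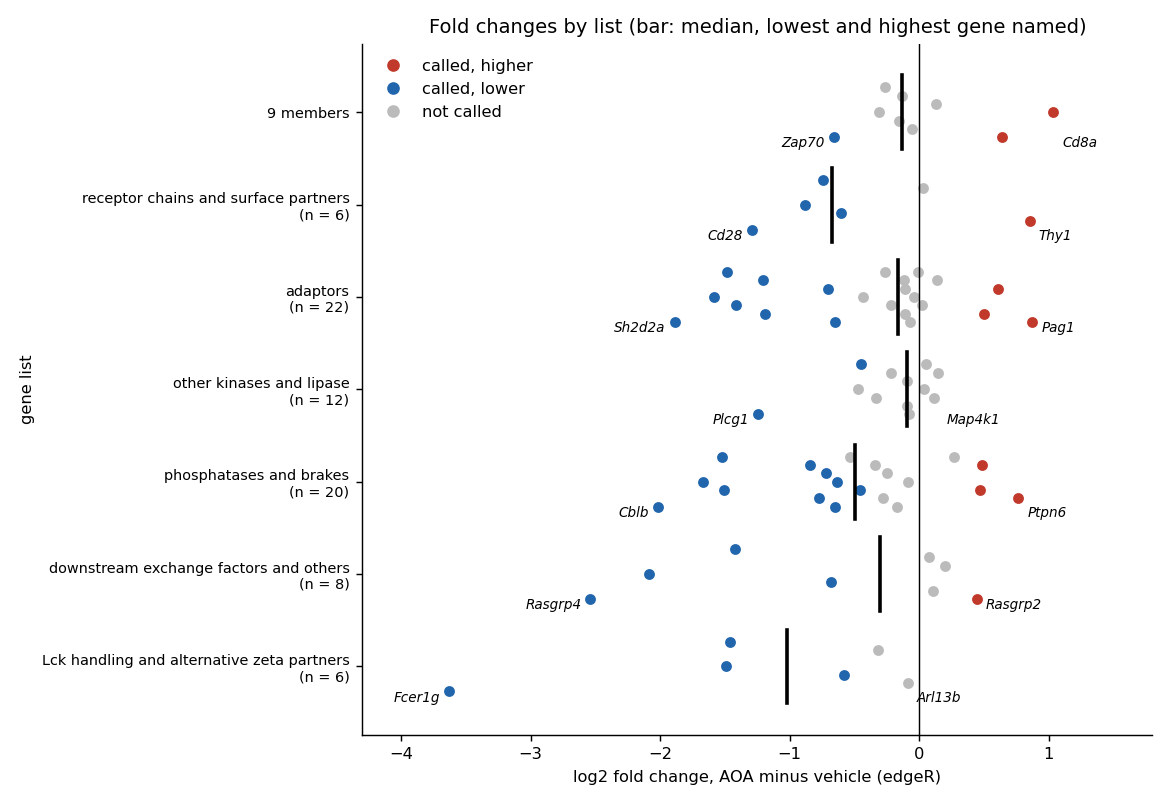
Log2 fold changes of the 9 genes and of the tested pathway genes by list, each point a gene, with the median of the list as a bar and the lowest and highest gene named. The median was -0.13 for the 9 genes and ranged from -1.02 to -0.10 over the other lists.

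The labelled cell type and the other cells that a culture could hold were checked by markers. All 6 CD8 T cell markers were present, 4 of them among the 9 genes, and their summed level was 4136 to 4687 CPM with vehicle and 5919 to 6664 CPM with AOA. Of these Cd8a, Cd8b1 and Thy1 rose, Cd2 fell (log2 fold change -0.61, adjusted p = 0.0112), and Cd3d and Cd3e were not called, so that the sum includes the rise of 2 of the 9 genes and is no separate check of it. The 4 CD4 T cell markers summed to 158 to 210 CPM with vehicle and 33.0 to 54.3 CPM with AOA. Of these, 3 fell: Cd4 (log2 fold change -3.08), Zbtb7b (-2.17) and Cd40lg (-2.58). Foxp3, the remaining marker, was at 13.3 ± 2.49 CPM with vehicle and 17.1 ± 1.42 CPM with AOA (SD, n = 3). It was not called (log2 fold change 0.36, adjusted p = 0.127). Cd4 stood at 9.81 ± 3.61 CPM with AOA against 1608 ± 134 CPM of Cd8a. The 2 dendritic cell markers of 7 that the matrix holds, Itgax and Xcr1, both fell, and their sum was 27.4 to 48.7 CPM with vehicle and 2.12 to 2.91 CPM with AOA. Some dendritic cells also express Cd8a. The 4 of 7 macrophage and monocyte markers summed to 18.6 to 24.9 and to 3.68 to 6.55 CPM, and both that were tested fell. The 4 of 7 B cell markers summed to 12.6 to 16.6 and to 22.6 to 30.7 CPM. Of these Cd79b rose. The 3 of 5 NK cell markers summed to 145 to 308 and to 128 to 213 CPM, and Klrb1c fell, to 6.99, 11.0 and 3.38 CPM with AOA. Most of this sum was Eomes, a factor that CD8 T cells also express, which was at 151 ± 37.5 CPM with vehicle and 155 ± 41.6 CPM with AOA (SD, n = 3) and was not called. Of the 6 gamma delta T cell markers Blk alone was in the matrix, at 0.317 to 2.03 CPM with vehicle and 0.230 to 0.529 CPM with AOA, and the 6 erythroid markers were not analysed here. CD4, gamma delta and NK cells also express several of the CD3, Lck, Zap70 and Lat genes, and the part of these cells in the results above was not tested.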

How the data were processed

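RNA of 3 vehicle and 3 AOA cultures was sequenced from stranded, paired-end libraries. Reads were mapped by the authors with default STAR, and what they deposited are raw counts per gene of reads with a unique position, beside a gene length. Bcl2fastq, featureCounts and the build mm10 come from the submitters' processing notes. No source used here gives their versions, the annotation, the strand setting or a gene filter. No column of per-sample counts was left without a sample. 1 gene had no symbol and kept its place by its Entrez number.

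The test was that of edgeR 4.0.16 in R 4.3.3. Low genes were removed by filterByExpr (minimum count 10), libraries were scaled by TMM, and a robust quasi-likelihood fit gave p-values that were adjusted after Benjamini and Hochberg across all genes left, with a threshold of 0.05. The log2 CPM used for ratios and for differences within a mouse has a prior count of 2. TPM was computed from the deposited lengths. Replicates of a group differed by a chi-square per gene of 10.03 to 70.9, above sampling noise, and each was counted as 1 sample.

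The members, the lists of pathway and marker genes and the tests were chosen with earlier results of these data known. The genes named are the 9 members, up to 3 called genes in each direction of each list that moved most on the log2 scale with a group mean of 10 CPM or more, and Fyn, Syk, Csk, Ptprc, Lcp2, Plcg1 and Fcer1g. A few genes on the lists are not reported here. Marker genes, genes at the loci and Pdk1 are named beside them. Adjusted p-values refer to all genes tested and never to a list alone.

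By the labels each mouse number stands once in either group, so the libraries are paired by donor. The 2 libraries of a mouse, each taken as its deviation from its group mean, had correlations of 0.0868, 0.189 and 0.194 across genes, which are not independent replicates. Alternatives were DESeq2 1.42.0, voom of limma 3.58.1, total counts only, size factors by the median of ratios, no filter on low counts, a filter of 10 CPM in 3 libraries, a replicate block for the mouse, removal of each library in turn, a call that also needs a log2 change of 1 in either direction, and a prior count of 0.5 for the ratios. The 3 added ratios and the neighbouring genes were added with the data in view. Gene positions are those of GENCODE vM21 on GRCm38, and upstream windows are those of RefSeq. The steps were tested on simulated data.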

Additional observations from a re-analysis of the deposited data

How the results depend on the processing

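Cd8a stayed called in all 13 alternatives to its test (log2 fold change 0.95 to 1.18, highest adjusted p 0.00722), Cd8b1 in 12 of 13 and Zap70 in 10 of 13, and each library whose removal ended a call of these is named in the report. Leaving out each library gave 1 to 3 members called, 1 to 2 higher and 0 to 1 lower. It gave 4 to 7 pathway genes higher and 24 to 36 lower. Over all genes it gave 2519 to 3499 higher and 2433 to 3297 lower, of 11803 to 11847 tested. With at least 10 CPM in 3 libraries, 5 pathway genes were higher and 32 lower. Over all genes that filter gave 2543 higher and 2380 lower, of 8876 tested. When a call also needed a log2 change of 1 in either direction, 1 member was called, 1 higher and 0 lower, and 18 pathway genes were called, 0 higher and 18 lower, beside 3081 of 11759 over all genes, 1418 higher and 1663 lower.

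With the mouse as a replicate block 3 members were called, 2 higher and 1 lower, and 40 pathway genes, and the block changed no call of a member or of a pathway gene named by the rule. Over all genes the block gave 6292 calls, beside 6233 without it.

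The direction of some uncalled values turned on 1 library. Cd3d ran from -0.38 to 0.0083, above 0 without AOA 2. Lck ran from -0.15 to 0.026, above 0 without vehicle 1 (0.026) or AOA 2 (0.0039). Syk ran from -0.29 to 1.12, below 0 without vehicle 1 (-0.26), vehicle 3 (-0.11) or AOA 2 (-0.29), and Csk from -0.084 to 0.16, below 0 without vehicle 2. The following log2 ratios turned without AOA 1: with each library left out, the difference lay between -0.27 and 0.22 for Cd3e over Cd3d, between -0.25 and 0.013 for Cd3g over Cd3d, and between -0.019 and 0.22 for Cd247 over Cd3e. Fcer1g was not called by limma (-2.57, adjusted p = 0.109) or without any 1 AOA library. Calls of Cd5, Cd6, Sit1, Nck2, Ptpn2, Ptprcap and Rasgrp2 were also lost under at least 1 alternative. The cause was not tested.

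Another scaling moved the median log2 fold change of all genes from -0.02 to -0.01 at most and changed no member call. With 3 libraries per group the 95% confidence intervals of the 6 uncalled members reached down to -0.66 and up to 0.49.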
